A study of Rattus norvegicus with 8 samples.

Results

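The liver of rats fed ethanol chronically was compared with that of pair-fed rats at 0 h, at the start of partial hepatectomy (PHx, surgical removal of part of the liver) and so before any regeneration. The comparison took the 4 arrays at 0 h of the 8 in the series, 2 ethanol-fed against 2 pair-fed. Of the 18166 genes with a probe set that names 1 gene, 8605 had a mean log2 level of at least 5 over these 4 arrays and were tested. The rats were male Sprague-Dawley, an outbred strain, so animals of a group are not genetically identical. Pair-fed rats received a carbohydrate diet in place of ethanol. In each diet 1 array came from untreated rats and 1 from rats given AM21, an antisense oligonucleotide against the microRNA miR-21 that carries locked nucleic acid bases. AM21 had been injected intraperitoneally at 7.5 mg/kg, 72 h before the operation. Each untreated array was a pool of RNA from 4 rats and each AM21 array a pool of RNA from 3, which leaves the spread between single animals unmeasured. The identifiers of untreated and AM21 rats fall in separate ranges, each of which holds both diets. Whether the ranges are separate cohorts is not stated in the labels, and AM21 treatment cannot be told apart from a difference between them. The age of the rats, the length of feeding, blood ethanol and the time of day of tissue collection were not stated in the labels used.

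The liver clears ethanol mainly through alcohol dehydrogenase, aldehyde dehydrogenase and the microsomal P450 CYP2E1. Drugs and other foreign compounds act through the nuclear receptors CAR and PXR, which switch on the CYP2B and CYP3A enzymes, conjugating enzymes and exporters. Sterol synthesis is driven by the transcription factor SREBP2, and much of hepatic metabolism follows a daily clock in which BMAL1 and CLOCK switch on the PER, CRY and REV-ERB repressors. Ethanol-fed liver is known for fat storage, activated Kupffer cells (the resident macrophages) and altered drug metabolism.

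Values are RMA levels, normalized intensities on a log2 scale, and the 4 levels of a gene are given with the untreated array before the AM21 array of each diet. Differences are ethanol-fed minus pair-fed with the standard error of the fit (n = 2 arrays per diet), and a difference is the base 2 logarithm of the fold change. On these arrays the first principal component of the tested genes held 58.8% of the variance and put both pair-fed arrays on one side and both ethanol-fed arrays on the other. The second held 24.7% and separated the untreated from the AM21 pair-fed array. Genes known to mark hepatocytes were high and close to even across arrays. Alb, the gene of albumin, was at 12.42 and 12.31 pair-fed against 12.38 and 12.34 ethanol-fed, and none of 17 hepatocyte markers passed the adjusted test of limma used below (2 were lower at an unadjusted p under 0.05).

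Between the diets 156 of the 8605 tested genes differed at an adjusted p under 0.05 (1.81%), of which 107 rose (1.24%) and 49 fell (0.569%). The p-values are Benjamini-Hochberg adjusted values from limma, fitted with diet and AM21 as terms. At an unadjusted p under 0.05 in limma 767 of the 8605 tested genes were higher and 457 lower. Counts of this kind in the gene lists are to be read beside that background. In 155 of the 156 the ethanol-fed arrays lay wholly above or wholly below the pair-fed arrays. The exception was Gimd1, whose diets overlapped at 5.28 and 7.32 pair-fed against 3.62 and 5.36 ethanol-fed although both pairs differed in the same direction. Among all tested genes 26.4% had both ethanol-fed arrays above both pair-fed arrays and 19.9% had both below, so lack of overlap alone is common here. A difference of at least 2-fold in both the untreated and the AM21 pair was seen in 36 genes upward (0.418%) and 17 downward (0.198%). The differences of the 2 pairs correlated across the tested genes with r = 0.466, and 60.2% of genes had the same sign in both, where genes are not independent replicates.

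The count of changed genes rested on a variance estimate with 1 residual degree of freedom and was not stable. It was 3 without the untreated pair-fed array, 7 without the untreated ethanol-fed array, 15 without the AM21 ethanol-fed array and 31 without the AM21 pair-fed array. An exact permutation test of 1 gene with 2 arrays against 2 cannot go below a two-sided p of 0.333. Changes of model terms, level minimum or variance prior leave a difference itself as it is. Leaving out 1 array cannot reverse a gene whose diets do not overlap. The direction was thus largely fixed in advance, and all 156 genes kept it in each of the 13 alternative settings that measured them. Of them 12 passed in at least 8 of those settings: Stac3 in 13, Dbp in 11, Acsf2, Car3, Hsd17b2, Lox and Spin2b in 10 each, RGD1562699 in 9, and Ces2e, Cyp2b1, Duoxa1 and Per3 in 8 each. RMA values carry no detection call. In 26 of the genes that rose the pair-fed mean, and in 16 of those that fell the ethanol-fed mean, was under 5, which makes the size of those differences uncertain. Such genes reached the level minimum only through the diet in which they were higher. These are bulk samples, in which fewer cells of a type and less RNA per cell cannot be told apart.

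**Figure D1:**
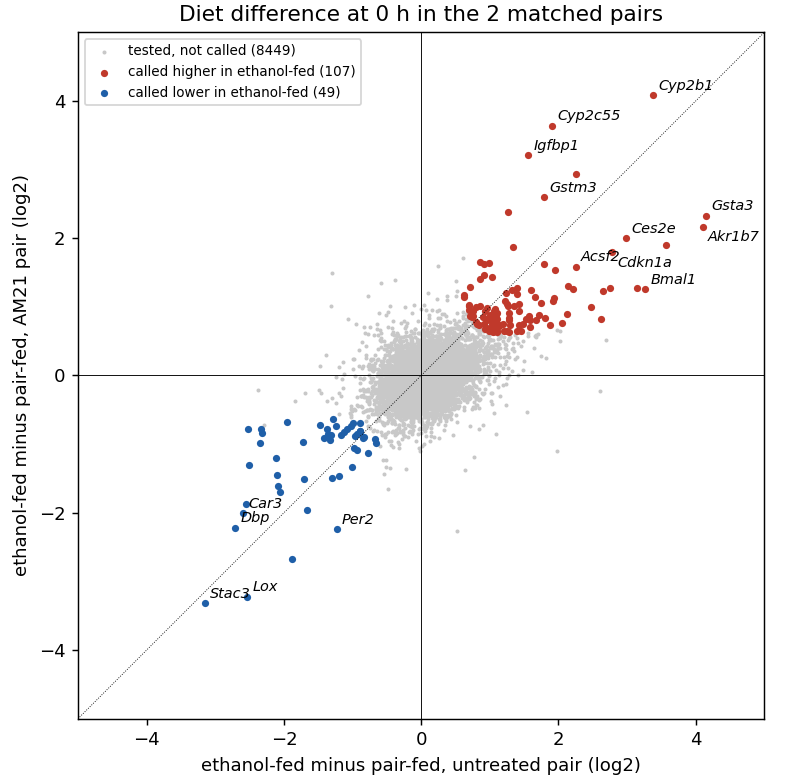
Each point is 1 of the 8605 tested genes, with the log2 difference between ethanol-fed and pair-fed liver at 0 h in the untreated pair on the x axis and in the AM21 pair on the y axis. Red points are the 107 genes that rose and blue points the 49 that fell at an adjusted p under 0.05, and the dotted line marks equal differences. Cyp2b1 stands at 3.38 and 4.08 and Stac3 at -3.15 and -3.32.

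Drug-metabolising genes held the largest rises. Cyp2b1, the phenobarbital-inducible P450 that is the classic target of CAR, was at 6.24 and 4.63 pair-fed against 9.62 and 8.71 ethanol-fed. The lowest ethanol-fed level lay well above the highest pair-fed level, and the difference of 3.73 ± 0.20 was a 13.3-fold rise (adjusted p = 9.12e-05). Its close relative Cyp2b2 was at 8.77 and 6.98 pair-fed against 11.02 and 9.92 ethanol-fed and rose by 2.59 ± 0.19. In both genes the AM21 array was the lower one within each diet. The 250 bases before the start of the 2 genes are printed to show how alike these family members are before their start. Aligned over this window 225 bases were identical, which is 90% of it, and the longest run shared without a break, in capitals, was 72 bases. The 2 windows are offset against each other, and the unpaired bases at their ends count against this share. They are RefSeq sequences of the rat assembly GRCr8, both on the plus strand, at chr1:90645869-90646118 for Cyp2b1 and chr1:90722031-90722280 for Cyp2b2.
Cyp2b1: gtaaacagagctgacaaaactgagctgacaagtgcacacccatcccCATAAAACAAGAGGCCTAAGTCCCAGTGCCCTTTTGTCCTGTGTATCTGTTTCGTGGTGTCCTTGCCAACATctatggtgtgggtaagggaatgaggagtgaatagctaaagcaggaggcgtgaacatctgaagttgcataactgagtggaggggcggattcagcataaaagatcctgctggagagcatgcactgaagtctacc
Cyp2b2: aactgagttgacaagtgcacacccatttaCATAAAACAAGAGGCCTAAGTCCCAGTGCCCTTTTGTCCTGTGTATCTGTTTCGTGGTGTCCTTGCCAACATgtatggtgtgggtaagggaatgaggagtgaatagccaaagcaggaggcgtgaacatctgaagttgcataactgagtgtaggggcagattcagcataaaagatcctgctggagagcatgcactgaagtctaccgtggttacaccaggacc
Whether the probe sets of these family members share signal was not tested.

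Of 25 tested targets of CAR and PXR 9 rose and 0 fell, against 1.24% and 0.569% of all tested genes. Not all members were higher: at an unadjusted p under 0.05 in limma 15 were higher and 2 lower. The lowest difference among the measured members was -0.63. Over the 29 measured members the median difference was 0.51 in the untreated and 0.49 in the AM21 pair, beside 0.006 and -0.0002 over all measured genes. Cyp2c55, a P450 of the same inducible group, was at 4.74 and 4.46 pair-fed against 6.64 and 8.10 ethanol-fed and rose by 2.77 ± 0.33 (adjusted p = 0.00613). The carboxylesterase Ces2e was at 5.26 and 4.89 pair-fed against 8.24 and 6.89 ethanol-fed and rose by 2.49 ± 0.23. Akr1b7, an aldo-keto reductase that reduces lipid aldehydes, was at 4.24 and 3.53 pair-fed against 8.34 and 5.69 ethanol-fed and rose by 3.13 ± 0.36. Its rise was 4.10 in the untreated and 2.16 in the AM21 pair, and the ethanol-fed arrays were farther from each other than the pair-fed arrays. Abcc3, an exporter of conjugated bile salts and drugs, was at 4.72 and 4.74 pair-fed against 6.94 and 6.0 ethanol-fed and rose by 1.74 ± 0.23. Ugt2b1, which attaches glucuronic acid to drugs and steroids, rose by 1.16 ± 0.16, the P450 Cyp3a9 by 0.98 ± 0.16 and Cyp2a1, a steroid and drug hydroxylase, by 0.88 ± 0.17. For Cyp2c55, Akr1b7 and Abcc3 the pair-fed mean was under 5. The count of 9 became 0 when the AM21 term was left out of the fit with all 4 arrays kept.

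**Figure D2:**
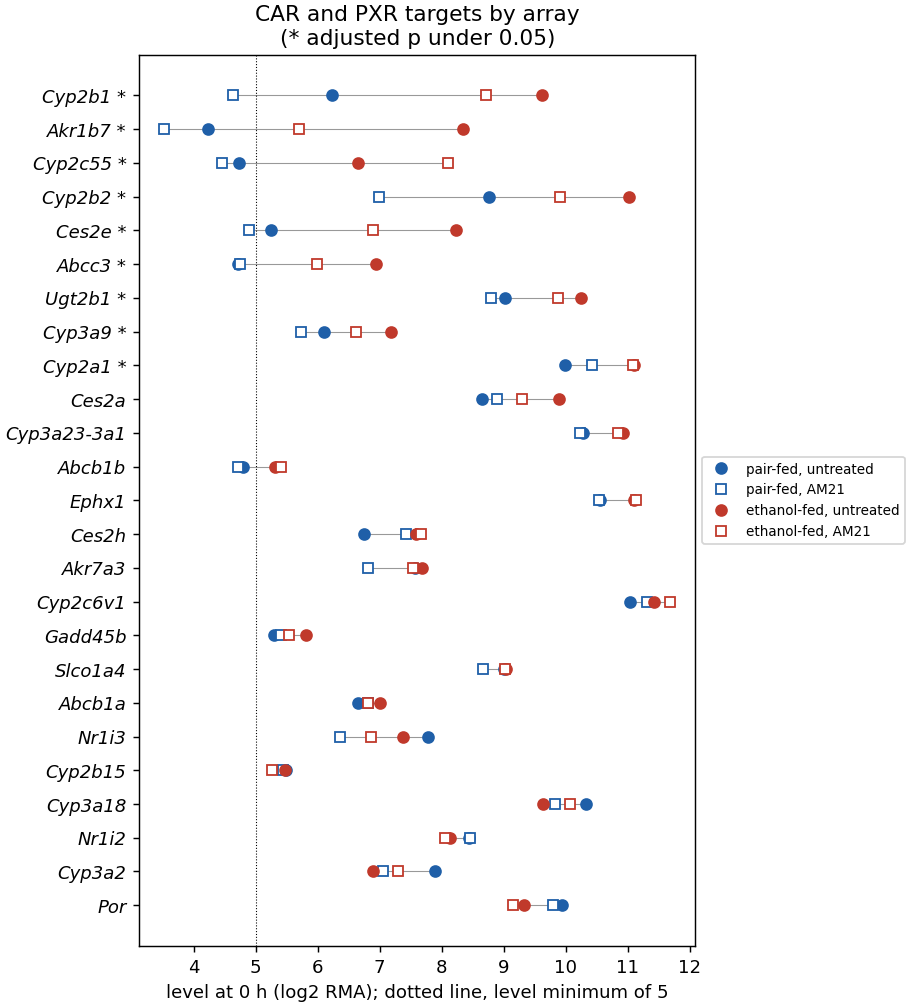
Log2 RMA levels at 0 h of the CAR and PXR targets, 1 row per gene and 1 symbol per array; blue symbols are pair-fed, red symbols ethanol-fed, filled circles untreated and open squares AM21, and an asterisk marks an adjusted p under 0.05. In the 9 marked genes both red symbols lie to the right of both blue symbols, and the dotted line is the level minimum of 5.

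Glutathione transferases, which couple glutathione to reactive compounds, split between a few large rises and many small differences. Gsta3 was at 3.29 and 3.86 pair-fed against 7.44 and 6.19 ethanol-fed. Both pair-fed arrays were under the level of 5 and both ethanol-fed arrays above it, and the rise was 3.24 ± 0.35 (adjusted p = 0.00346). Gstm3 was at 3.94 and 4.15 pair-fed against 5.73 and 6.75 ethanol-fed and rose by 2.19 ± 0.21, and Gstm5 was at 5.35 and 4.73 pair-fed against 6.06 and 6.02 ethanol-fed and rose by 1.01 ± 0.18. With Ugt2b1 these made 4 rises and 0 falls among 29 tested genes of conjugation, against 1.24% and 0.569% of all tested genes. At an unadjusted p under 0.05 in limma 11 were higher and 1 lower. Over the 34 measured members the lowest difference was -1.29, and the median was 0.01 in the untreated and 0.27 in the AM21 pair. Transferases of one class are similar in sequence and can share probe signal. In the list of oxidative stress genes, 1 of 29 rose and 1 fell. The fall was in Gclm, the regulatory subunit of the enzyme that starts glutathione synthesis, at 9.64 and 8.89 pair-fed against 8.27 and 8.11 ethanol-fed (-1.07 ± 0.19, adjusted p = 0.0276). Nqo1, the quinone reductase often read as a marker of NRF2 activity, was at 5.98 and 6.50 pair-fed against 7.05 and 6.77 ethanol-fed and did not pass. The rise was Trib3, a pseudokinase induced by amino acid and endoplasmic reticulum stress, at 0.87 ± 0.18. It is also in the list of the ATF4 stress response, where 3 of 27 tested genes rose, against 1.24% of all tested genes. The others were the stress hormone Gdf15 (0.80 ± 0.16) and Cth, which makes cysteine from cystathionine (1.22 ± 0.20). The rest of this list did not rise as a group. In 5 of the 27 both ethanol-fed arrays lay above both pair-fed arrays and in 7 below, against 26.4% and 19.9% of all tested genes. The list median was -0.005 in the untreated and -0.02 in the AM21 pair. Of 24 tested endoplasmic reticulum chaperones and folding factors none passed in limma (5 were lower at an unadjusted p under 0.05). In 11 of the 25 measured ones both ethanol-fed arrays lay below both pair-fed arrays and in 0 above, while 19.2% of all 18166 measured genes lay below and 20.2% above. The median of the 25 was -0.02 in the untreated and -0.20 in the AM21 pair. Their mean level was 9.07 and 9.25 pair-fed against 9.03 and 9.03 ethanol-fed.

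Of the genes best known for clearing ethanol and acetaldehyde, 4 are described first. Adh1c, the main hepatic alcohol dehydrogenase, was at 12.05 and 11.86 pair-fed against 12.06 and 11.97 ethanol-fed, and Cyp2e1, the ethanol-inducible P450, at 11.03 and 10.78 pair-fed against 10.77 and 10.82 ethanol-fed. Catalase, Cat, which can also oxidise ethanol in peroxisomes, was at 11.82 and 11.80 pair-fed against 11.90 and 11.90 ethanol-fed, and Aldh2, the mitochondrial enzyme that clears most acetaldehyde, at 10.42 and 10.50 pair-fed against 10.38 and 10.29 ethanol-fed. Within these 4 genes no difference was larger than its standard error, and the differences were 0.07 ± 0.16, -0.11 ± 0.16, 0.09 ± 0.16 and -0.13 ± 0.16. CYP2E1 is known to be regulated largely at the protein level, and protein was not measured. Of 19 tested genes of ethanol and aldehyde oxidation 2 rose, against 1.24% of all tested genes. At an unadjusted p under 0.05 in limma 4 of the 19 were higher and 0 lower. Aldh1a1, the cytosolic enzyme that oxidises retinal and acetaldehyde, was at 7.75 and 7.29 pair-fed against 9.10 and 9.16 ethanol-fed and rose by 1.61 ± 0.18 (adjusted p = 0.00459). Adh6, a further alcohol dehydrogenase, was at 8.39 and 8.90 pair-fed against 9.48 and 9.63 ethanol-fed and rose by 0.91 ± 0.17.

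Genes of cholesterol synthesis were higher as a group before surgery. In 19 of 19 measured members, all of them tested, both ethanol-fed arrays lay above both pair-fed arrays, and 8 of the 19 rose at an adjusted p under 0.05. Of all tested genes 26.4% lay above in this way and 1.24% rose. The median difference was 1.40 in the untreated and 0.57 in the AM21 pair. Pmvk, which phosphorylates mevalonate phosphate, was at 6.08 and 6.84 pair-fed against 7.83 and 7.89 ethanol-fed and rose by 1.40 ± 0.20. Idi1, which interconverts the isoprene building blocks, was at 6.93 and 7.01 pair-fed against 8.36 and 8.04 ethanol-fed and rose by 1.23 ± 0.17. Sqle, the squalene epoxidase and a controlling step of the pathway, was at 7.69 and 8.15 pair-fed against 9.62 and 9.28 ethanol-fed and rose by 1.53 ± 0.21 (adjusted p = 0.0105). Lss, which closes the sterol rings, rose by 1.08 ± 0.20, and Cyp51, the lanosterol demethylase, by 1.04 ± 0.18. The late steps were represented by Tm7sf2, a sterol reductase at 7.04 and 8.15 pair-fed against 9.69 and 9.39 ethanol-fed that rose by 1.94 ± 0.29, Hsd17b7, a ketosteroid reductase that rose by 1.09 ± 0.17, and Dhcr7, the last reductase on one branch, at 7.36 and 8.28 pair-fed against 9.49 and 9.59 ethanol-fed with a rise of 1.72 ± 0.21. Srebf2, the gene of SREBP2, was at 7.17 and 7.52 pair-fed against 8.10 and 7.92 ethanol-fed, and Insig1, the sterol sensor partner that holds SREBP in the endoplasmic reticulum, at 9.43 and 10.00 pair-fed against 10.82 and 10.54 ethanol-fed, and neither passed.

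In all 19 genes the AM21 pair-fed array was above the untreated pair-fed array. The level of the untreated pair-fed array, the lowest of the 4, thus bears on the size of the difference. The count of 8 became 0 when the AM21 term was left out of the fit with all 4 arrays kept. Clock genes moved with the diet groups in the same arrays, with values given further on, and their part in this difference was not tested.

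**Figure D3:**
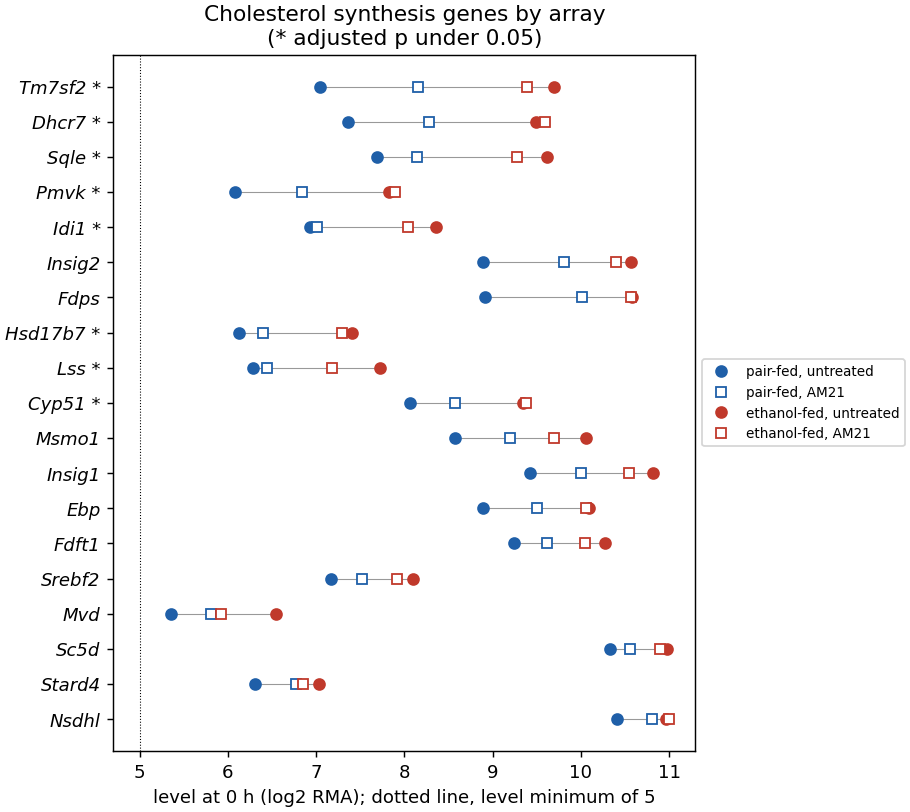
Log2 RMA levels at 0 h of the 19 cholesterol synthesis genes, 1 row per gene and 1 symbol per array (blue pair-fed, red ethanol-fed, filled circles untreated, open squares AM21; an asterisk marks an adjusted p under 0.05). In every row both red symbols lie to the right of both blue symbols, and the filled blue circle is the lowest.

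The promoters of 4 genes that rose are printed because the 8 genes moved together. SREBP2 is known to act with the factor NF-Y, which binds the letters CCAAT, and capitals mark that motif, which reads ATTGG when it lies on the opposite strand as in these windows. The 250 bases before the gene start are from RefSeq on GRCr8, each on the minus strand, at chr17:66547525-66547774 for Idi1, chr20:12118231-12118480 for Lss, chr13:84722755-84723004 for Hsd17b7 and chr1:212789542-212789791 for Tm7sf2.
Idi1: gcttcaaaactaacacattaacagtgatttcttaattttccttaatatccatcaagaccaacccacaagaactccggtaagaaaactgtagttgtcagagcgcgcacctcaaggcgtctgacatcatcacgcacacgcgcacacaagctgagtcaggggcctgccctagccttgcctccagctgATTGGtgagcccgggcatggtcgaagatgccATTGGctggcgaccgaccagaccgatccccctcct
Lss: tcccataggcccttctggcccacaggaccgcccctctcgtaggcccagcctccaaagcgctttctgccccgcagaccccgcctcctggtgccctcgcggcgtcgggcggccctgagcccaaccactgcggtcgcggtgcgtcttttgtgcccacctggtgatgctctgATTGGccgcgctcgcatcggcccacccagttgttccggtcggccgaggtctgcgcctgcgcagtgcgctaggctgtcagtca
Hsd17b7: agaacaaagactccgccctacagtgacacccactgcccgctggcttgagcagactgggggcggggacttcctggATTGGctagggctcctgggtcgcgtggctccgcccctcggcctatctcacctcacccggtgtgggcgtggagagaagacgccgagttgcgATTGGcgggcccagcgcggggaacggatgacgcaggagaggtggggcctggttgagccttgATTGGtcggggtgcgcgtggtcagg
Tm7sf2: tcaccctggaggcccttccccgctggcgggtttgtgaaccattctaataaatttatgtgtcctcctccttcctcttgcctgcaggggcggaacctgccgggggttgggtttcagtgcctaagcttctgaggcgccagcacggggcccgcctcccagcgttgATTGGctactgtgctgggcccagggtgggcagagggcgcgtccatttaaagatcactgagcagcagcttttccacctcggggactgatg
CCAAT on either strand was found in 13 of the 15 cholesterol synthesis promoters in the table (86.7%), in 37.4% of 7184 promoters of tested genes and in 36.1% of 27457 promoters. A match describes letters and is neither a bound site nor a cause. The motif was not particular to this pathway, since it was found in 29 of 36 promoters of G2 and mitosis genes as well (80.6%).

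Of 22 tested genes of fatty acid synthesis 2 rose, against 1.24% of all tested genes. They were Scd2, a fatty acid desaturase (1.30 ± 0.21), and Acacb, which makes the malonyl-CoA that restrains fatty acid import into mitochondria (0.96 ± 0.19). At an unadjusted p under 0.05 in limma 10 of the 22 were higher and 0 lower. The median of this list was 0.76 in the untreated pair and -0.01 in the AM21 pair. In 22 of its 23 measured members the AM21 pair-fed array lay above the untreated one. Srebf1, the gene of the factor that drives fatty acid synthesis, was at 7.13 and 7.95 pair-fed against 7.80 and 7.57 ethanol-fed, with overlapping diets. Elovl6, a fatty acid elongase, was at 4.60 and 6.11 pair-fed against 7.20 and 5.89 ethanol-fed, and Gpam, which starts triglyceride synthesis, at 6.78 and 8.55 pair-fed against 9.47 and 9.07 ethanol-fed. In both of these genes the untreated pair-fed array was far below the other 3, and neither passed. Of 39 tested genes of fatty acid oxidation and PPAR-alpha, the receptor that senses fatty acids, 6 rose and 0 fell (1.24% and 0.569% of all tested genes). At an unadjusted p under 0.05 in limma 16 were higher and 1 lower, against 767 and 457 of all 8605 tested genes. Over the 41 measured members both ethanol-fed arrays lay above both pair-fed arrays in 26 and below in 6, against 20.2% and 19.2% of all measured genes. The median difference of this list was 0.23 in the untreated and 0.21 in the AM21 pair. The acyl-CoA synthetase Acsf2 was at 5.86 and 6.23 pair-fed against 8.11 and 7.81 ethanol-fed and rose by 1.92 ± 0.19 (adjusted p = 0.00229). Acsm5, a medium-chain relative, rose by 1.31 ± 0.19, Cidea, a lipid droplet protein, by 1.26 ± 0.21 and Cyp4a1, the fatty acid omega-hydroxylase, by 1.17 ± 0.20. Angptl4, a secreted inhibitor of lipoprotein lipase, rose by 1.01 ± 0.16 and Ppargc1a, a coactivator of mitochondrial genes, by 0.88 ± 0.16. Ppara itself was at 9.02 and 8.76 pair-fed against 8.18 and 8.70 ethanol-fed and Cpt1a, the gate of mitochondrial import, at 9.38 and 9.76 pair-fed against 9.18 and 9.32 ethanol-fed, and neither passed. The count of 6 became 0 without either untreated array and 1 without either AM21 array. In the lipid droplet list 3 of 23 rose, against 1.24% of all tested genes. They were Cidea, Plin3 (0.91 ± 0.16), a droplet coat protein, and Fabp4, a fatty acid carrier of fat cells and macrophages (0.88 ± 0.16). At an unadjusted p under 0.05 in limma 6 of the 23 were higher and 0 lower. Plin2, the main droplet coat protein of hepatocytes, was at 8.62 and 10.07 pair-fed against 10.23 and 10.11 ethanol-fed, with only the untreated pair-fed array standing apart, and did not pass.

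In bile acid metabolism Cyp7b1, a hydroxylase of the alternative pathway, was at 7.16 and 6.36 pair-fed against 5.84 and 5.42 ethanol-fed and fell by 1.13 ± 0.17, while Cyp7a1, the rate-limiting enzyme of the classic pathway, was at 9.59 and 8.33 pair-fed against 9.0 and 8.95 ethanol-fed with overlapping diets. In carbohydrate metabolism 2 of 28 tested genes rose and 2 fell, against 1.24% and 0.569% of all tested genes. At an unadjusted p under 0.05 in limma 7 of the 28 were higher and 3 lower. Igfbp1, a secreted binding protein of insulin-like growth factors that insulin represses, was at 8.66 and 6.76 pair-fed against 10.21 and 9.97 ethanol-fed and rose by 2.39 ± 0.32 (adjusted p = 0.0105). Ugp2, which makes UDP-glucose for glycogen, was at 10.49 and 10.00 pair-fed against 9.37 and 9.17 ethanol-fed and fell by 0.97 ± 0.16. Gys2, the liver glycogen synthase, was at 8.79 and 8.36 pair-fed against 7.77 and 7.62 ethanol-fed and fell by 0.88 ± 0.16, and the other rise was Ppargc1a. In methionine and one-carbon metabolism 1 of 22 rose, Cth, and 1 fell. The fall was in Mtr, the methionine synthase that remethylates homocysteine, at 6.76 and 6.65 pair-fed against 5.83 and 5.81 ethanol-fed (-0.89 ± 0.16, adjusted p = 0.0311). Bhmt, which remethylates homocysteine from betaine, was at 11.25 and 11.47 pair-fed against 11.85 and 11.72 ethanol-fed and did not pass. None of 39 tested genes of urea and amino acid catabolism, 24 of iron handling or 41 of the respiratory chain passed, with list medians over both pairs of 0.08, 0.12 and 0.07. At an unadjusted p under 0.05 in limma, 7 of the first list were higher and 1 lower, 1 and 2 of the second, and 2 and 0 of the third. Hamp, the iron hormone hepcidin, was at 12.25 and 12.24 pair-fed against 12.17 and 12.21 ethanol-fed.

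Genes that differ between the sexes in rat liver moved in part. Of 15 tested male-biased genes 3 fell and 0 rose, against 0.569% and 1.24% of all tested genes. The median of the 15 was -0.66 in the untreated and -0.02 in the AM21 pair, beside 0.06 and -0.015 over all tested genes. Stac3, best known as an adaptor of the muscle calcium channel, was at 8.83 and 8.93 pair-fed against 5.67 and 5.61 ethanol-fed and fell by 3.24 ± 0.16, a 9.42-fold fall (adjusted p = 9.12e-05). The 2 arrays of each diet lay close together and far from those of the other diet. Car3, a carbonic anhydrase that male rats express at high levels, was at 11.61 and 11.50 pair-fed against 9.02 and 9.49 ethanol-fed and fell by 2.30 ± 0.18. Hsd17b2, which inactivates oestradiol and testosterone, was at 11.76 and 11.49 pair-fed against 9.21 and 9.62 ethanol-fed and fell by 2.22 ± 0.19. Cyp2c11, the male-specific P450, was at 11.39 and 11.28 pair-fed against 10.73 and 10.83 ethanol-fed, where the diets did not overlap and the test was not passed (adjusted p = 0.147). Of 10 tested female-biased genes 3 rose and 0 fell, against 1.24% and 0.569% of all tested genes. The 3 were Abcc3 and Cyp2a1, already described as CAR and PXR targets, and Prlr. The median of the 10 was 1.13 in the untreated and 0.14 in the AM21 pair, and 2 of the 10 were lower at an unadjusted p under 0.05 in limma. Fmo1, a flavin monooxygenase of drugs, was 1 of these, at 9.54 and 8.83 pair-fed against 8.34 and 8.27 ethanol-fed (-0.88 ± 0.19, adjusted p = 0.0577), and did not pass. Prlr, the prolactin receptor, was at 6.40 and 7.41 pair-fed against 8.53 and 8.30 ethanol-fed and rose by 1.51 ± 0.26. Cyp2c12, the female-specific P450, was at 8.31 and 8.64 pair-fed against 9.46 and 8.34 ethanol-fed with overlapping diets. The growth hormone target Igf1 was at 11.53 and 11.62 pair-fed against 11.51 and 11.73 ethanol-fed and did not pass. Outside the lists above, Slc6a6, the taurine transporter, was at 3.67 and 5.05 pair-fed against 7.23 and 6.95 ethanol-fed and rose by 2.73 ± 0.32, with a pair-fed mean under 5. Ddhd1, a phospholipase, was at 5.48 and 6.93 pair-fed against 8.63 and 8.21 ethanol-fed and rose by 2.21 ± 0.35. Cldn1, a tight junction protein, was at 6.32 and 7.55 pair-fed against 9.07 and 8.83 ethanol-fed and rose by 2.01 ± 0.29. In these 3 genes the untreated pair-fed array was the lowest of the 4. Zfp354a, a zinc finger gene, was at 9.27 and 7.99 pair-fed against 6.92 and 7.01 ethanol-fed and fell by 1.66 ± 0.28, and the palmitoyltransferase Zdhhc23 was at 7.34 and 7.61 pair-fed against 5.23 and 6.41 ethanol-fed and fell by 1.65 ± 0.22. Other large falls were those of Lox, the lysyl oxidase that crosslinks collagen, at 6.10 and 6.92 pair-fed against 3.56 and 3.69 ethanol-fed (-2.88 ± 0.19), and Spin2b, at 7.31 and 7.33 pair-fed against 5.42 and 4.65 ethanol-fed (-2.28 ± 0.21). Acnat2, which conjugates fatty acids to amino acids, was at 10.28 and 10.15 pair-fed against 7.77 and 8.85 ethanol-fed and fell by 1.91 ± 0.26. Nat8, an acetyltransferase of cysteine conjugates, was at 10.20 and 9.18 pair-fed against 8.14 and 7.47 ethanol-fed and fell by 1.88 ± 0.17, and Nrg4, a growth factor ligand of ERBB receptors, was at 6.41 and 6.03 pair-fed against 4.31 and 4.58 ethanol-fed and fell by 1.77 ± 0.19.

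Clock genes moved in both directions. Of 19 tested clock and clock output genes 6 fell and 2 rose, against 0.569% and 1.24% of all tested genes. At an unadjusted p under 0.05 in limma 6 of the 19 were higher and 8 lower. Bmal1, the core activator, was at 4.26 and 5.94 pair-fed against 7.53 and 7.19 ethanol-fed and rose by 2.26 ± 0.37 (adjusted p = 0.0251). Its rise was 3.27 in the untreated and 1.26 in the AM21 pair. Clock, its partner, was at 7.10 and 7.80 pair-fed against 8.32 and 8.20 ethanol-fed, and Npas2, an alternative partner, at 5.20 and 6.13 pair-fed against 6.32 and 6.58 ethanol-fed, both with the ethanol-fed arrays above and neither past the test. Nfil3, a repressor of D-box genes, was at 6.46 and 6.77 pair-fed against 7.60 and 7.51 ethanol-fed and rose by 0.94 ± 0.17. Per2, a period repressor, was at 6.56 and 6.80 pair-fed against 5.33 and 4.56 ethanol-fed and fell by 1.73 ± 0.23, and Per3 was at 6.80 and 6.34 pair-fed against 4.71 and 4.73 ethanol-fed and fell by 1.85 ± 0.18. Nr1d1, the gene of REV-ERB-alpha, which represses Bmal1, was at 9.52 and 9.53 pair-fed against 6.99 and 8.75 ethanol-fed and fell by 1.66 ± 0.33 (adjusted p = 0.0495). Dbp, an output factor that binds D-boxes, was at 8.75 and 8.53 pair-fed against 6.04 and 6.31 ethanol-fed and fell by 2.46 ± 0.18 (adjusted p = 0.000644). Tef, a relative of Dbp, was at 6.49 and 6.65 pair-fed against 5.63 and 5.74 ethanol-fed and fell by 0.88 ± 0.16, and Usp2, a rhythmic deubiquitinase, was at 7.44 and 7.21 pair-fed against 6.25 and 5.74 ethanol-fed and fell by 1.33 ± 0.16. Per1 was at 6.67 and 6.58 pair-fed against 6.07 and 6.25 ethanol-fed and Cry1, with overlapping diets, at 5.62 and 6.09 pair-fed against 6.52 and 5.38 ethanol-fed, and neither passed. The count of 8 became 2 when the AM21 term was left out of the fit with all 4 arrays kept. The part that the hour of collection had in these and the other differences was not tested.

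**Figure D4:**
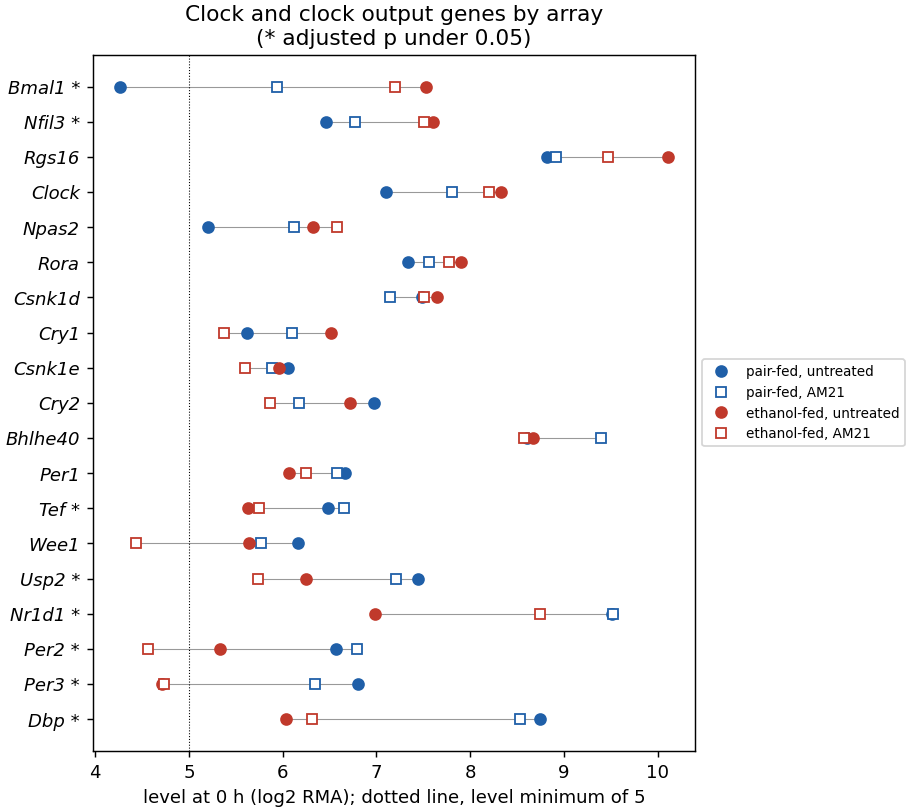
Log2 RMA levels at 0 h of the clock and clock output genes, ordered from the largest rise to the largest fall, 1 row per gene and 1 symbol per array (blue pair-fed, red ethanol-fed, filled circles untreated, open squares AM21; an asterisk marks an adjusted p under 0.05). Bmal1 at the top has its red symbols to the right, and Dbp, Per3, Per2 and Nr1d1 at the bottom have theirs to the left.

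The promoters of 3 clock genes are shown for the motifs through which this loop is known to run. Capitals mark the ROR element TAGGTCA in Bmal1, the D-box TTATGNAA in Per2 and the E-box CACGTG in Tef. Each motif was searched on both strands of the 250 bases before the gene start, from RefSeq on GRCr8, at chr1:176766078-176766327 on the plus strand for Bmal1, chr9:99496994-99497243 on the minus strand for Per2 and chr7:115206577-115206826 on the plus strand for Tef. In each window only the 1 motif named for it is marked.
Bmal1: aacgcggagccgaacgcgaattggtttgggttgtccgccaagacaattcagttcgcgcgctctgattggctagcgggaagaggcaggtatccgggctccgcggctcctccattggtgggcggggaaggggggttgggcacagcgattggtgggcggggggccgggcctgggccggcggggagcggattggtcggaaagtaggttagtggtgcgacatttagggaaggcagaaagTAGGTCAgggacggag
Per2: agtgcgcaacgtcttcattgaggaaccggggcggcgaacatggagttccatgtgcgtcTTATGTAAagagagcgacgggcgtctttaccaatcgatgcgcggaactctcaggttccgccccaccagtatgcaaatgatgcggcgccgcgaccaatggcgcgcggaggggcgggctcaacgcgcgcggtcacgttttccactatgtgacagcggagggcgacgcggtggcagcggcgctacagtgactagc
Tef: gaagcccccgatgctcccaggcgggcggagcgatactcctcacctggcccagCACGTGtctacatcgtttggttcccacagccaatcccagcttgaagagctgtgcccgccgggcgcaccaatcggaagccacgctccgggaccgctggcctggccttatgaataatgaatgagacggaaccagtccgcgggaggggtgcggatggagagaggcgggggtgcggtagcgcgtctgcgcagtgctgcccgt
The ROR element of Bmal1 began at position -16 counted from the gene start, the D-box of Per2 at -192 and the E-box of Tef at -198. The E-box was found in 5 of 18 clock promoters (27.8%) against 9.02% of 7184 promoters of tested genes and 6.18% of 27457 promoters. The D-box and the ROR element were each found in 1 of the 18. Among promoters of tested genes the D-box was found in 1.71% and the ROR element in 1.91%.

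The mean level of the measured genes of G2 and mitosis before surgery was 4.40 and 4.28 in the pair-fed and 5.13 and 4.66 in the ethanol-fed arrays. Cdkn1a, the gene of the cell cycle inhibitor p21, was at 5.60 and 6.58 pair-fed against 8.38 and 8.38 ethanol-fed and rose by 2.29 ± 0.23 (adjusted p = 0.00225). It was 1 of 3 rises among 21 tested p53 targets and cell cycle inhibitors, with Gdf15 and the DNA repair gene Xpc (0.93 ± 0.17), against 1.24% of all tested genes. None of the 21 fell, and at an unadjusted p under 0.05 in limma 9 were higher and 3 lower. Gadd45a, also in this list, differed by -0.89 and did not pass (adjusted p = 0.0607 in limma). Of 43 measured genes of G2 and mitosis only 14 reached the level minimum, and 6 of these rose, against 1.24% of all tested genes. Top2a, the topoisomerase of dividing cells, was at 5.14 and 4.58 pair-fed against 6.56 and 5.52 ethanol-fed (1.18 ± 0.18), and Mki67, the proliferation marker Ki-67, at 4.95 and 4.58 pair-fed against 6.21 and 5.60 ethanol-fed (1.14 ± 0.16). Cdkn3, a phosphatase of cyclin-dependent kinases, was at 5.04 and 4.83 pair-fed against 6.43 and 6.11 ethanol-fed (1.34 ± 0.16). The mitotic genes Cdca3, Tpx2 and Nusap1 rose by 0.97 ± 0.17, 0.81 ± 0.16 and 0.79 ± 0.16. For all of the 6 except Cdca3 the pair-fed mean was under 5. Those genes reached the level minimum only through the ethanol-fed arrays, so their calls are no separate support. Over all 43 measured members, both ethanol-fed arrays were above both pair-fed arrays in 27 and below in 2, against 20.2% and 19.2% of all measured genes. Over these 43 members the median difference was 0.73 in the untreated and 0.33 in the AM21 pair, beside 0.006 and -0.0002 over all measured genes. Rrm2, a subunit of ribonucleotide reductase, was at 7.42 and 5.85 pair-fed against 8.69 and 8.23 ethanol-fed and was the 1 rise among 20 tested S phase genes (1.82 ± 0.24). Ccnd1, cyclin D1, was at 7.52 and 7.79 pair-fed against 6.90 and 7.30 ethanol-fed and did not pass. The 6 mitotic calls became 0 when the AM21 term was left out of the fit with all 4 arrays kept.

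Markers of other liver cells were examined in the same arrays. Of 27 tested Kupffer cell and macrophage markers 1 passed, Cd14, the endotoxin co-receptor, at 7.19 and 7.23 pair-fed against 8.78 and 8.47 ethanol-fed with a rise of 1.42 ± 0.17 (adjusted p = 0.00556). In 25 of the 30 measured macrophage markers both ethanol-fed arrays lay above both pair-fed arrays and in 0 below, against 20.2% and 19.2% of all measured genes. The mean level of the list was 7.11 and 7.12 in the pair-fed and 7.51 and 7.51 in the ethanol-fed arrays. Marco, a scavenger receptor of macrophages, was at 6.73 and 6.94 pair-fed against 7.71 and 7.50 ethanol-fed, Clec4f, a lectin of Kupffer cells, at 8.10 and 8.46 pair-fed against 9.0 and 8.72 ethanol-fed and Adgre1, the gene of F4/80, at 6.01 and 5.90 pair-fed against 6.25 and 6.40 ethanol-fed, and none of these passed. Of 21 measured sinusoidal endothelial markers 12 lay above and 0 below (against the same 20.2% and 19.2%), with none past the test (4 higher at an unadjusted p under 0.05 in limma) and mean list levels of 6.0 and 6.10 in pair-fed against 6.29 and 6.29 in ethanol-fed liver. Of 25 lymphocyte markers 6 were tested and of 20 neutrophil and monocyte markers 4 were tested, with no call in either (2 lower lymphocyte and 3 higher neutrophil markers at an unadjusted p under 0.05 in limma). The stellate cell and matrix list held 1 fall among 28 tested genes, Lox, while 13 of the 28 had both ethanol-fed arrays above both pair-fed arrays and 1 below (26.4% and 19.9% of all tested genes), and 3 were higher at an unadjusted p under 0.05 in limma. The cholangiocyte list held 1 fall among 10, Cdh17, an adhesion molecule also expressed in intestine, at 8.66 and 8.55 pair-fed against 6.94 and 7.58 ethanol-fed (-1.35 ± 0.20). In the list of endotoxin and inflammatory signalling 3 of 26 rose, Cd14, the interleukin 1 receptor antagonist Il1rn (0.86 ± 0.17) and the chemokine Ccl4 (0.88 ± 0.18). Of all tested genes 1.24% rose. At an unadjusted p under 0.05 in limma 7 of the 26 were higher and 2 lower. Of 39 tested interferon response genes 2 rose, against the same 1.24%, the guanosine triphosphatase Ifi47 (1.32 ± 0.23) and Ifit1 (0.84 ± 0.17). At an unadjusted p under 0.05 in limma 10 of the 39 were higher and 4 lower. None of 25 acute phase genes passed (2 higher and 2 lower at an unadjusted p under 0.05 in limma). Among the remaining lists, 1 gene rose in each of the other P450s (Cyp51, of 26 tested), retinoid metabolism (Aldh1a1, of 19), pericentral hepatocyte genes (Aldh1a1, of 18) and growth hormone and steroid signalling (Igfbp1, of 24). None passed among 18 lipoprotein, 19 periportal, 21 G1 and 4 erythroid genes, of which 2, 4, 2 and 0 were higher and 1, 1, 2 and 0 lower at an unadjusted p under 0.05 in limma. The part of the macrophage markers' shift in the other differences was not tested.

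The same animals were measured again 24 h after removal of 70% of the liver, which allows the diet difference to be set against itself over time. The test was the diet by time interaction in limma over 8 arrays, with the pool as a block and 1 residual degree of freedom. It passed in 24 of 8605 genes (0.279%), and 23 of these were among the 156 that differed at 0 h. In all 24 the change in the diet difference was opposite in sign to the difference at 0 h, and in 15 the difference changed sign from 0 h to 24 h in both pairs. The 0 h difference enters the interaction itself, so the opposite sign is no separate support. With the 24 h arrays alone the same fit called 0 genes (0.0%) and 1223 at an unadjusted p under 0.05.

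Cdkn1a differed by 2.78 and 1.80 at 0 h and by -0.06 and -0.68 at 24 h (change -2.66 ± 0.21, adjusted p = 0.0048). Sqle differed by 1.94 and 1.13 at 0 h and by -1.17 and -0.90 at 24 h (change -2.57 ± 0.27). Of the cholesterol list Idi1, Dhcr7, Cyp51 and Hsd17b7 passed with it, and in 17 of the 19 members both ethanol-fed arrays lay below both pair-fed arrays at 24 h, against 18.4% of all measured genes. The list medians at 24 h were -0.45 in the untreated and -0.36 in the AM21 pair. The mitotic genes Cdkn3, Top2a, Mki67 and Cdca3 also passed, and in 37 of the 43 measured members of their list the ethanol-fed arrays were below at 24 h. For Cdkn3 the difference was 1.39 and 1.28 at 0 h and -0.83 and -0.97 at 24 h. Of the drug-metabolising genes Cyp2b1 differed by 1.83 and 2.32 at 24 h, still with ethanol-fed above pair-fed in both pairs but with both pair-fed levels under 5, and Cyp2c55 by -0.47 and 0.92 (changes -1.66 ± 0.20 and -2.54 ± 0.20). Of the clock genes Per2 and Usp2 passed, with differences of 0.50 and -0.10 and 0.81 and -0.16 at 24 h.

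Stac3 passed the interaction test too, but all 4 of its levels at 24 h were under 5, so the size of the difference there is uncertain. In other genes the difference had the same direction at both times. Car3 differed by -2.92 and -1.84 at 24 h, Gsta3 by 3.72 and 2.72, Aldh1a1 by 1.34 and 1.42 and Prlr by 2.41 and 1.79, and Cd14 by 1.15 and 0.96. Their interaction values were -0.08 ± 0.21, -0.02 ± 0.24, -0.23 ± 0.21, 0.59 ± 0.22 and -0.36 ± 0.20, none past the test, which does not show that the differences were equal. In macrophage markers 22 of 30 had both ethanol-fed arrays above at 24 h and 0 below, where 19.1% of all measured genes lay above. The interaction count became 6 without the untreated pair-fed pool, 55 without the AM21 pair-fed pool and 0 without either ethanol-fed pool. Effects of the operation itself and of the time between samples cannot be told apart from regeneration in the 24 h arrays.

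**Figure D5:**
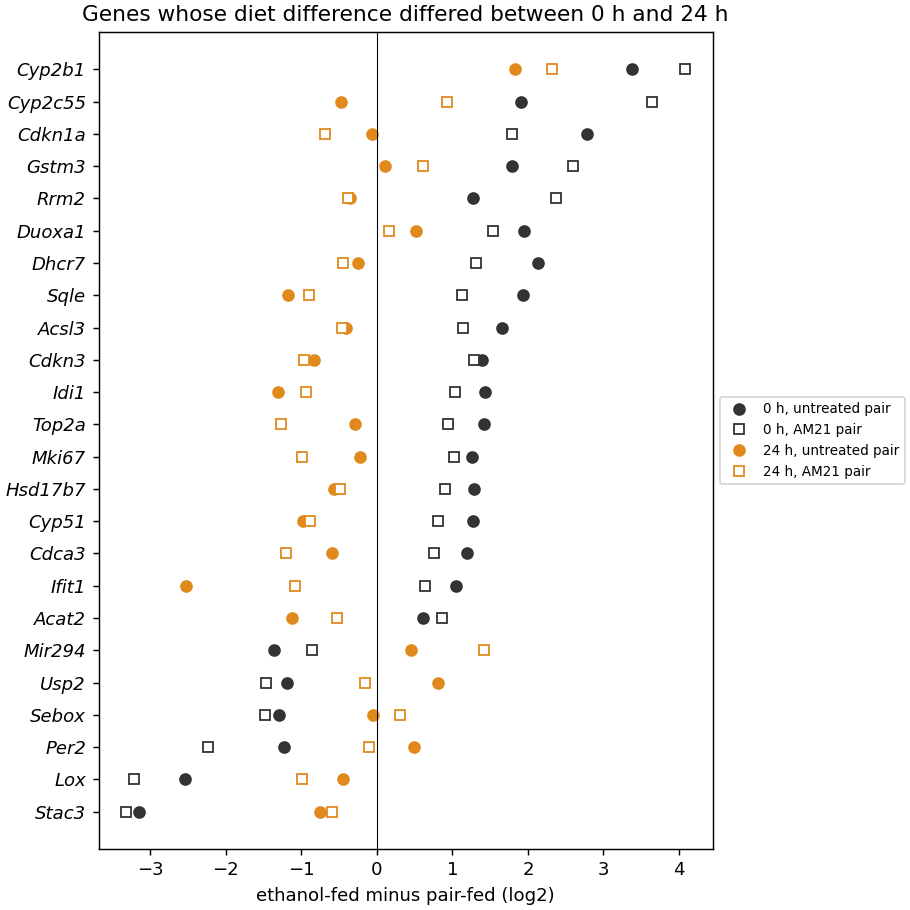
Log2 differences between ethanol-fed and pair-fed liver for the 24 genes whose diet difference differed between 0 h and 24 h, with dark symbols for 0 h and orange symbols for 24 h, circles for the untreated and open squares for the AM21 pair. The 18 genes at the top were higher in ethanol-fed liver at 0 h and the 6 at the bottom lower, and in 15 the orange symbols lie on the other side of 0.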

How the data were processed

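Liver RNA of male Sprague-Dawley rats was measured on Affymetrix arrays, 1 pool of RNA per array. The deposited values are log2 levels that the authors made with RMA, per the submitters' processing notes, which name Affymetrix Expression Console and no version. RMA makes the distributions of the arrays alike and hides a shift common to most genes. Values on the 4 arrays at 0 h ran from 0.481 to 13.3, with array medians between 4.11 and 4.23. Arrays give no read depth, and their number limits the precision. Of 36685 probe sets 18511 name 1 gene, 575 several and 17599 none here. The 18394 found by gene identifier in the GRCr8 RefSeq table needed 0 changes of symbol. For the 291 genes with more than 1 probe set the brightest was used, and genes with a mean of at least 5 over the 4 arrays were tested.

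Linear models were fitted in R 4.3.3 by limma 3.58.1 with diet and AM21 as terms, moderated with eBayes, and a Benjamini-Hochberg adjusted p under 0.05 as the threshold. The variance prior, taken from all tested genes, had 7.71 degrees of freedom. Each diet and treatment group held 1 pool, so the spread between like pools was not measured. The 1 residual degree of freedom of a gene came from the gap between its untreated and AM21 diet differences. The p-values and standard errors rest on that gap and on the prior. The labels give no replicate numbers: arrays were matched by treatment, and the animal identifiers tie the 0 h and 24 h arrays of each pool. The interaction fit used 8 arrays. Gene lists (40, with 1263 names, of which 1120 had a probe set and 888 were tested) and the members were chosen with earlier results of these data known. Named genes are the 15 largest rises and falls, up to 4 members of each list, a fixed set of 24 liver genes, the 8 smallest interaction p-values and the 5 largest gaps between pairs; further list members and other genes were named after their values were seen. Of the fixed set, Fasn and Adh4 were not analysed here. The alternatives were other terms, level minimums, probe set means, variance priors, normalizations and leaving out each array. Fits without an array also lacked the AM21 term. Interaction fits without a pool also lacked the time by AM21 term.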

Additional observations from a re-analysis of the deposited data

Results flagged for a closer look

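The diet difference (ethanol-fed minus pair-fed, log2) differed between 0 h and 24 h in 24 genes by the interaction test of limma over 8 arrays (adjusted p under 0.05, 1 residual degree of freedom). The values that follow are the difference at 24 h minus that at 0 h. Among genes of cholesterol and fatty acid metabolism it was -2.57 for Sqle, -2.36 for Idi1, -2.07 for Dhcr7, -1.97 for Cyp51, -1.63 for Hsd17b7, -1.84 for the acyl-CoA synthetase Acsl3 and -1.56 for Acat2. Among cell cycle genes it was -2.66 for Cdkn1a, -2.23 for Cdkn3, -2.19 for Rrm2, -1.96 for Top2a, -1.87 for Cdca3 and -1.75 for Mki67. Among genes of drug metabolism it was -2.54 for Cyp2c55, -1.83 for Gstm3 and -1.66 for Cyp2b1. It was -2.65 for the interferon response gene Ifit1 and -1.40 for Duoxa1. A change in the other direction was found in 6 genes: 2.56 for Stac3 (all 4 levels at 24 h under 5), 2.16 for Lox, 2.04 for the probe set named Mir294 in the platform annotation, 1.93 for Per2, 1.65 for Usp2 and 1.53 for Sebox.

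In 10 genes named by the rule the diet difference at 0 h had opposite signs in the untreated and the AM21 pair, and with 1 array per group the difference between the pairs was not tested. It was 2.60 in the untreated and -0.22 in the AM21 pair for the elongase Elovl6, and 0.52 and -2.27 for Cish, a target of growth hormone and cytokine signalling. It was -1.30 and 1.49 for Sap18, and -1.31 and 1.02 for C1h9orf85. These 4 genes were chosen for their gap between the pairs. The values were 1.15 and -0.30 for the female-specific P450 Cyp2c12, -0.59 and 0.63 for Cyp7a1, 0.66 and -0.39 for Srebf1, -0.26 and 0.044 for Cyp2e1, -0.024 and 0.11 for Igf1, and -0.033 and 0.025 for Alb, the gene of albumin.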

How the results depend on the processing

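All 156 genes called for diet at 0 h kept their direction in the 13 alternatives, which was largely fixed in advance as described above. The number of genes called (156, of which 107 higher) depended on the setting. It was 18 with no treatment term (9 higher), 99 with all 8 arrays in the fit, 3 with no level filter (1 higher), 22 with a level minimum of 6, 388 with an intensity trend, 102 with a robust prior, 20 after quantile normalization (8 higher) and 46 after median centring. The share of higher calls was 68.6% as reported, and 50% with no treatment term, 33.3% with no level filter and 40% after quantile normalization. It was 33.3% without the untreated pair-fed, 28.6% without the untreated ethanol-fed, 40% without the AM21 ethanol-fed and 67.7% without the AM21 pair-fed array. With 1 array left out the count ran from 3 to 31. The mean of a gene's probe sets gave 122. At an unadjusted p under 0.05 in limma the count was 1224, and 1216 with no treatment term. The interaction count (24) was 1 without the time by AM21 term, 0 with no level filter (1368 at an unadjusted p under 0.05), 169 with an intensity trend, 2 with the pool not blocked, and from 0 to 55 with 1 pool left out (295 and 345 at an unadjusted p under 0.05 where it was 0). The cause of these differences was not tested. Of 58 single genes followed over the settings, giving 740 values, 13 values changed sign. None of these was in the 42 called genes, whose direction was largely fixed in advance. With 1 array left out the difference ran from -0.028 to 0.16 for Adh1c (lowest without the AM21 pair-fed array), from -0.055 to 0.047 for Alb (highest without the untreated pair-fed array, and 0.018 without the AM21 ethanol-fed array), from -0.13 to 0.98 for Cyp2c12 (lowest without the untreated ethanol-fed array), from -0.24 to 0.020 for Cyp2e1 (highest without the untreated pair-fed array), from -0.61 to 0.65 for Cyp7a1 (lowest without the AM21 pair-fed array, and -0.0055 without the untreated ethanol-fed array), from -0.067 to 0.15 for Igf1 (lowest without the AM21 ethanol-fed array, and -0.0012 without the untreated pair-fed array) and from -0.27 to 0.55 for Srebf1 (lowest without the untreated pair-fed array). After quantile normalization Alb was at 0.016 and Cyp7a1 at -0.060, and after median centring Cyp7a1 was at -0.010. No paired analysis by replicate number was possible because the labels carry no replicate numbers. With 2 pools per diet, small differences were not detectable.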
